A study of Mus musculus with 3 samples.

Results

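The genes described here encode the ephrin, Slit-Robo and netrin guidance systems, 41 of the 32285 features in the count matrices of dissociated mouse otic vesicles, the epithelial sacs from which the inner ear and its sensory neurons form. They were taken by symbol and not by their values: 8 ephrins, 14 Eph receptors, 3 Slits, 4 Robo receptors, 4 netrins (Ntn1, Ntn3, Ntn4 and Ntn5), 2 netrin-G genes and 6 netrin receptors (Dcc, Neo1 and Unc5a to Unc5d). The data are single-cell RNA-seq UMI counts from E10.5 embryos, where a UMI is a tag that marks 1 captured transcript. The group CD is 1 library from embryos with 1 Sox9Y440X copy beside a normal copy (genotype Sox9Y440X/+, which truncates the transcription factor SOX9), and the group WT is 2 libraries of wild-type embryos at the same age. Each library is a pool of otic vesicles that also held mesenchyme, neurons and endothelium. The labels do not tie the libraries to litters or say whether the 2 WT libraries come from separate pools. The p-values below therefore rest on library-to-library spread, part of which may be technical.

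Ephrins are membrane-bound ligands that signal through Eph receptor kinases on touching cells, and they set boundaries and repel axons. Slits are secreted repellents read by Robo receptors, while netrins attract or repel through DCC, neogenin and the UNC5 receptors. In the developing ear these systems are known for sorting otic neuroblasts, for steering the neurites of spiral and vestibular ganglion cells, and for shaping the semicircular canals, where netrin 1 takes part in canal fusion.

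The next 4 windows show the sequence in front of members that the results turn on, each the 250 bases upstream of a RefSeq start, read from GRCm38.p6 (the deposited counts carry no coordinates, and the submitters' processing notes name mm39). Efna4 and Ephb1 are shown from the 6 members called above both other classes in the otic cells, and Robo2 and Epha5 as receptors of developing neurons. Capitals mark the SOX-type letters ACAAAG or ACAATG and the E-box CAGCTG or CAGATG, searched on both strands, none of which overlap here. The Efna4 window (chr3:89338029-89338278, minus strand) holds ACAAAG at 176 and 129 bases before the start, the Ephb1 window (chr9:102354694-102354943, minus strand) holds ACAATG at 132 bases, the Robo2 window (chr16:74411826-74412075, minus strand, the only 1 of 3 Robo2 starts with such letters) holds CAGCTG at 37 bases, and the Epha5 window (chr5:84417383-84417632, minus strand) holds none of these letters.
Efna4: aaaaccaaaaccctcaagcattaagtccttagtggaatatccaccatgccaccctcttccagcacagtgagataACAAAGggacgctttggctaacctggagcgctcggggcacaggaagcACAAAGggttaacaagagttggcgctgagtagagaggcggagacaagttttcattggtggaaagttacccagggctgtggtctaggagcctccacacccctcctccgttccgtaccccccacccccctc
Ephb1: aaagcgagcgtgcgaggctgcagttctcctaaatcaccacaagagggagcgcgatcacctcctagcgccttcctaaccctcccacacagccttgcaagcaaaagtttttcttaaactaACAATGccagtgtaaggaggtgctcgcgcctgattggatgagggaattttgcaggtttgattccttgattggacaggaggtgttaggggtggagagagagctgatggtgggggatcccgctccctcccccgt
Robo2: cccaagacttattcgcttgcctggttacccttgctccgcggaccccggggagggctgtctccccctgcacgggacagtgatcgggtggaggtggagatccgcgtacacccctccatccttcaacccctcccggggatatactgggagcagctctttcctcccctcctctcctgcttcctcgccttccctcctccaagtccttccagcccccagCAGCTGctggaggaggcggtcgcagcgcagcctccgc
Epha5: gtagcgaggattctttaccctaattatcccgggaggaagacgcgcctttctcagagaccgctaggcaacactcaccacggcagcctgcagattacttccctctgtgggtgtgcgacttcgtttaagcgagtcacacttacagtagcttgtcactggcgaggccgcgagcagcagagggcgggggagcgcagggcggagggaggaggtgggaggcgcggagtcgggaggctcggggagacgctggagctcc

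Of the 41 members, 36 had a window in the RefSeq table. Among these 36, ACAAAG was found for 2 (5.56%, against 18.6% of all 27025 genes with a window), ACAATG for 2 (5.56% against 12.2%), CAGCTG for 6 (16.7% against 14.7%) and CAGATG for 4 (11.1% against 16.3%). The SOX-type letters were those of Efna4 and Efna2 (ACAAAG) and of Ephb1 and Ntn4 (ACAATG). Efna2 was highest in the mesenchyme and Ntn4 in the neurons. The windows of Epha1, Epha7, Efna5 and Unc5b, the other members called highest in the otic cells, held no SOX-type letters. A match is a run of letters and no measurement of binding.

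The 3 libraries held 8548 (CD), 6564 (WT replicate 1) and 11018 (WT replicate 2) cells with at least 1000 genes and at most 10% mitochondrial UMIs, at median depths of 18652.5, 20418.5 and 15508.5 UMIs. The 3 classes were gated by marker UMIs: otic cells (Epcam present, with Fbxo2, Hmx2, Hmx3 and Pax2 at 2 or more UMIs in sum), neurons (Neurod1 and Stmn2 at 2 or more, no Epcam) and mesenchyme (Prrx1 and Twist1 at 2 or more, no Epcam). The otic gate took 2778, 2537 and 4083 cells in the order CD, WT 1, WT 2, the neuron gate 876, 608 and 1092, and the mesenchyme gate 1860, 1083 and 2508. Marker genes the gates did not use peaked in their own class, with the 10 neuron markers summing to 5374, 5086 and 5026 CPM in the neurons and to at most 363 in the otic cells. The neuron gate also held 267, 432 and 377 CPM of 8 endothelial markers, and 114, 146 and 52.4 CPM of 6 neural tube markers. It held 262, 147 and 349 CPM of 10 mesenchyme markers, and 22160, 10190 and 21880 CPM of 6 erythroid markers. The erythroid markers stood at 15930, 6592 and 7383 CPM in the mesenchyme. In the same order, 127, 40 and 261 cells lay in both the neuron and the mesenchyme gate and were counted in both. Barcodes present in more than 1 library numbered 40, 27 and 40. Sox9 itself stood at 688 CPM in the CD otic cells and at 409 and 338 in WT, and reads from the 3' end do not separate its normal and mutant copies. Levels below are CPM, the counts of a gene relative to the scaled total of its class and library, given in the order CD, WT 1, WT 2 and compared within a gene only. A sum does not tell fewer expressing cells from less RNA per cell, and these were not counted separately here.

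At a mean of 10 CPM or more, 24 of the 41 members were found in at least 1 class: 19 in the otic cells, 21 in the neurons, 19 in the mesenchyme and 15 in all 3. The other 17 (Efna3, Epha1, Epha2, Epha3, Epha6, Epha8, Epha10, Ephb6, Slit1, Robo3, Robo4, Ntn1, Ntn4, Ntn5, Ntng2, Unc5a and Unc5d) stayed at a mean of 8.77 CPM or less in each class. The netrin ligand with the best known role in the ear, Ntn1, was among these low members, at 1.82, 1.71 and 2.89 CPM in the otic cells, and Ntn5 had 0 to 5 UMIs per library there. Ntn5 and Epha6 were too low to test, which left 39 members in the comparison of classes.

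The members were first compared between classes. In otic cells against neurons, edgeR called 13 members higher and 20 lower of 39, where 33.4% of all genes tested were higher and 31.6% lower. Otic cells against mesenchyme gave 11 higher and 12 lower (background 31.6% and 31.4%). Scaling to plain library totals turned the 5148 higher and 5103 lower genes of that comparison into 6838 and 3509, with a median shift of 0.14, and left 12 members higher and 11 lower. Neurons against mesenchyme gave 19 higher and 15 lower (background 29.1% and 30.1%). The median log2 difference over the members was -0.21, 0.12 and 0.40 in these 3 comparisons, beside 0.02, -0.01 and 0.00 over all genes. Called above both other classes were 16 members in the neurons, 6 in the otic cells and 6 in the mesenchyme, where the shares of all genes were 18.8%, 19.7% and 16.6%. The 16 of the neurons include Efna1 and Robo4, whose levels there depended on cells with endothelial UMIs.

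**Figure D1:**
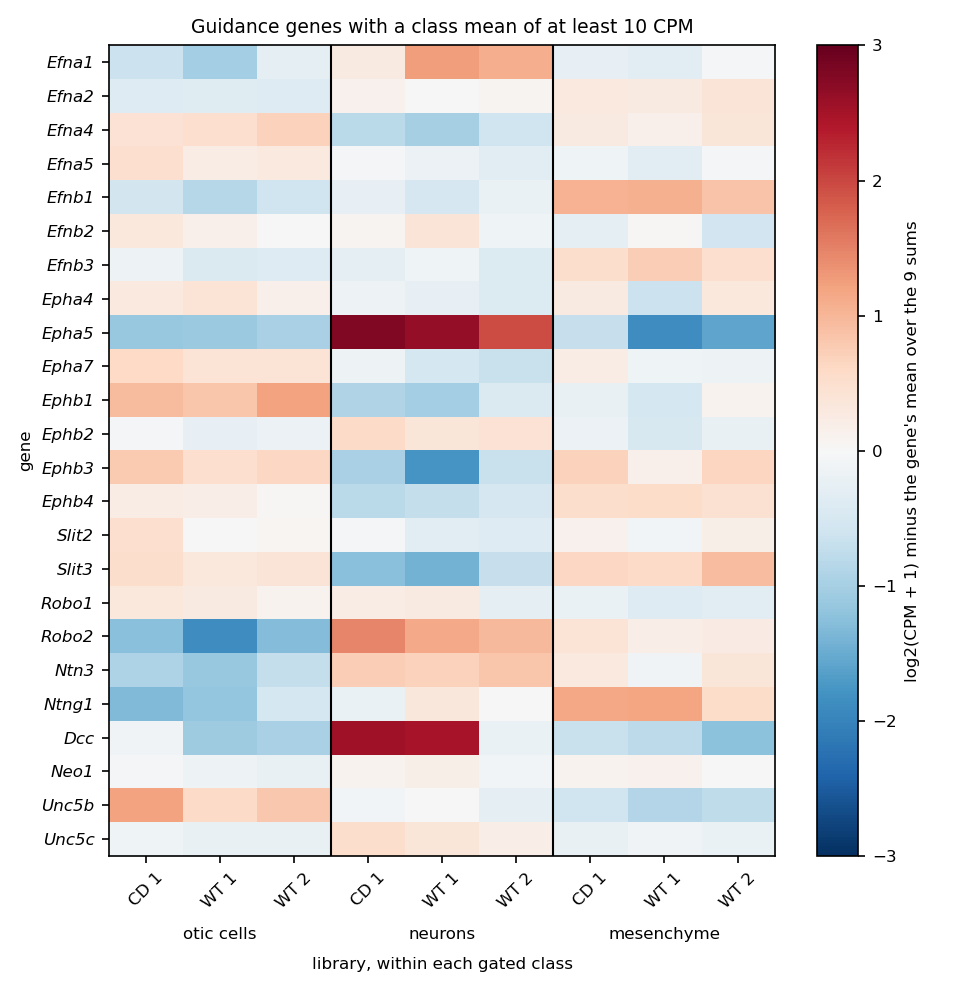
Level of the 24 members with a class mean of at least 10 CPM (rows) in each library of the 3 gated classes (columns), as log2(CPM + 1) minus the mean of the gene over the 9 sums. Epha5, Dcc and Robo2 are red in the neurons, Ephb1, Unc5b and Efna4 are red in the otic cells, and the low Dcc level of WT 2 stands out among the neurons.

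The ephrin ligands divided by class. Efna4, a GPI-anchored ligand of EphA receptors, read 59.8, 62.7 and 70.6 CPM in the otic cells, 24.5, 21.3 and 28.4 in the neurons and 52.5, 48.5 and 56.5 in the mesenchyme. The groups did not overlap, and otic cells exceeded neurons by 1.38 on the log2 scale (SE 0.06, edgeR adjusted p = 5.98e-07) and mesenchyme by 0.29 (SE 0.06, edgeR adjusted p = 0.00175). Efna5, which binds EphA receptors as well as EphB2, was also highest in the otic cells with 55.6, 46.3 and 48.0 CPM, against 31.3 to 38.3 in the neurons and 31.4 to 38.3 in the mesenchyme. Both otic differences passed the test (log2 0.53 and 0.50, SE 0.08 each), and neurons and mesenchyme overlapped (-0.02, SE 0.08, edgeR adjusted p = 0.824).

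Efnb1, an X-linked transmembrane ligand of EphB receptors that marks boundaries in craniofacial mesenchyme, stood at 72.5, 72.9 and 62.6 CPM in the mesenchyme, 23.4, 18.5 and 22.3 in the otic cells and 28.8, 23.9 and 30.0 in the neurons. Mesenchyme was therefore the high class in each library, with a log2 difference of -1.70 for otic cells against it (SE 0.09, edgeR adjusted p = 1.77e-06). The smaller step between otic cells and neurons (-0.38, SE 0.10, edgeR adjusted p = 0.0109) changed sign to 0.12 when cells in both the neuron and the mesenchyme gate were left out, and was not called without CD (adjusted p = 0.0665). Efnb3, also a transmembrane ligand, had the same high class (25.5, 29.8 and 25.2 CPM in mesenchyme, 12.6 to 15.6 in otic cells, 12.8 to 16.0 in neurons). Efna2 rose from the otic cells (36.9, 37.5 and 37.2 CPM) over the neurons (53.8, 48.3 and 51.6) to the mesenchyme (60.0, 58.7 and 64.3), each step called, though the last was not called without cells that held endothelial UMIs (edgeR adjusted p = 0.0751).

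Efnb2, a transmembrane ligand known from arteries, was lowest in the mesenchyme of each library. It read 94.6, 83.4 and 75.8 CPM in the otic cells, 79.6, 99.2 and 69.3 in the neurons and 61.6, 76.7 and 49.9 in the mesenchyme. Otic cells and neurons overlapped (log2 0.05, SE 0.10, edgeR adjusted p = 0.681), and both exceeded the mesenchyme within each library (0.45 and 0.40, SE 0.10 each). In a reference gate of endothelial cells Efnb2 reached 117, 122 and 107 CPM.

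Efna1, an EphA ligand of vascular endothelium, depended on the cells in the neuron gate. Its levels there were 9.16, 19.0 and 17.0 CPM, against 3.13 to 5.88 in the otic cells, and edgeR called the difference (log2 -1.74, SE 0.25, adjusted p = 0.000319). The endothelial reference gate read 109, 131 and 146 CPM. Once cells with any Cdh5 or Pecam1 UMI were left out of the 3 classes, Efna1 read 1.29, 0.31 and 2.04 CPM in the neurons and the difference turned to 1.59. Robo4, the endothelial Robo, moved in the same way, with 4.20, 5.59 and 4.15 CPM in the gate, 0.21, 0.31 and 0.22 without those cells and 53.5, 48.1 and 54.2 in endothelium. These exclusions, chosen after the data were seen, left the endothelial markers at 15.6, 13.0 and 22.1 CPM. Efna3, the remaining ephrin, read 3.58 to 4.61 CPM in neurons and 1.74 to 2.54 in the other classes.

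Among the Eph receptors, 7 of 13 tested were higher and 4 lower in otic cells than in neurons, where 33.4% of all genes were higher and 31.6% lower. Epha5, a receptor of developing neurons, was the most neuron-weighted of the members above 10 CPM: 204, 184 and 115 CPM in the neurons, 12.5, 12.8 and 14.3 in the otic cells and 17.4, 7.14 and 8.92 in the mesenchyme. Neurons exceeded mesenchyme by 3.89 on the log2 scale (SE 0.26, edgeR adjusted p = 6.22e-06), and otic cells against neurons gave -3.62 (SE 0.24, edgeR adjusted p = 4.33e-06). Every neuron sum lay above every other sum, also without endothelial cells (224, 208 and 129 CPM) and in neurons gated on Neurod1 (215, 187 and 145 CPM).

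Ephb2, a receptor of transmembrane ephrins in axon pathfinding, was higher in neurons too, with 52.0, 45.4 and 47.2 CPM against 29.1 to 33.9 in the otic cells (log2 -0.63, SE 0.05, edgeR adjusted p = 1.38e-05) and 24.8 to 30.6 in the mesenchyme. Its otic level passed the test against mesenchyme (0.14, SE 0.05, edgeR adjusted p = 0.0419), but not without CD (adjusted p = 0.142) or without WT 1 (adjusted p = 0.178). Epha8 and Epha10, both low, were called higher in neurons than in either class (1.57 to 5.91 and 1.84 to 3.19 CPM there, at most 0.52 elsewhere).

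Ephb1, an EphB receptor, had its highest level in the otic cells at 13.1, 12.1 and 15.9 CPM, against 2.57 to 4.40 in neurons and 4.08 to 6.83 in mesenchyme. The groups did not overlap, with log2 differences of 2.06 (SE 0.12, edgeR adjusted p = 1.65e-06) and 1.36 (SE 0.10, edgeR adjusted p = 6.74e-06). Epha7, which takes part in boundary formation in the neural tube, was highest in the otic cells as well, with 96.8, 84.6 and 84.3 CPM against 57.1, 43.8 and 39.3 in neurons and 73.8, 57.9 and 57.1 in mesenchyme (log2 0.93 and 0.50, SE 0.06 each). Epha1, an epithelial Eph receptor, read 8.21, 8.34 and 9.74 CPM in the otic cells and 0.35 to 0.69 in neurons. That difference of 4.19 (SE 0.21, edgeR adjusted p = 9.92e-07) was the largest positive one among the members in that comparison.

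Ephb3 and Ephb4 were lowest in neurons. Ephb3 read 25.1, 20.7 and 22.2 CPM in otic cells, 23.6, 15.8 and 22.9 in mesenchyme and 6.74, 3.46 and 8.61 in neurons, where otic cells and mesenchyme overlapped (log2 0.14, SE 0.14, edgeR adjusted p = 0.387). Ephb4, a receptor of venous endothelium, read 20.5, 20.2 and 18.0 CPM in otic cells, 25.7, 25.9 and 24.3 in mesenchyme, 9.54 to 11.9 in neurons and 41.2 to 49.7 in endothelium, with mesenchyme above otic cells in each library (-0.37 for otic cells, SE 0.08, edgeR adjusted p = 0.00484). Epha4, which binds ephrins of both classes, overlapped between otic cells (75.3, 82.0 and 68.8 CPM) and mesenchyme (73.9, 39.1 and 76.2), where WT 1 was low. Its step to the neurons (55.1, 52.0 and 46.4 CPM, log2 0.57, SE 0.21, edgeR adjusted p = 0.0382) was lost without CD (adjusted p = 0.116) and without WT 2 (adjusted p = 0.0547). Of the rest, Ephb6 (3.83 to 5.21 CPM in otic cells) exceeded neurons, Epha2 (at most 3.02 CPM) exceeded mesenchyme in otic cells, Epha3 was not called in any class comparison and Epha6 had at most 10 UMIs in a sum.

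**Figure D2:**
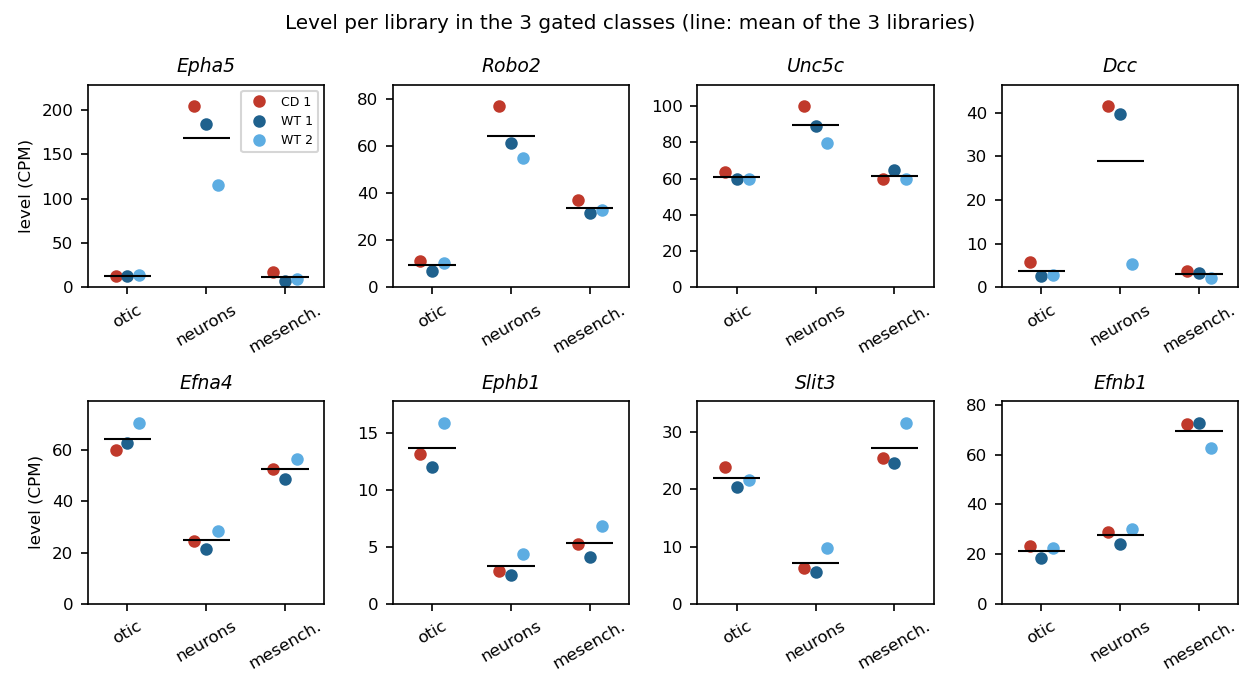
Level (CPM) of 8 members in each library of the otic cells, neurons and mesenchyme; points are libraries (red CD 1, dark blue WT 1, light blue WT 2) and lines are means of the 3. Epha5, Robo2 and Unc5c are highest in the neurons, Efna4 and Ephb1 in the otic cells and Efnb1 in the mesenchyme, Slit3 is low in the neurons, and Dcc reaches about 40 CPM in the neurons of CD 1 and WT 1 but not of WT 2.

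Slit2 and Slit3, which encode repellents, were higher in otic cells than in neurons. Slit3 read 23.9, 20.4 and 21.6 CPM in otic cells and 25.5, 24.6 and 31.7 in mesenchyme, but 6.23, 5.50 and 9.74 in neurons. Otic cells exceeded neurons by 1.62 (SE 0.15, edgeR adjusted p = 2.19e-05), while otic cells and mesenchyme were not called apart (-0.30, SE 0.12, edgeR adjusted p = 0.0520). Slit2, a midline and ganglion repellent, showed a smaller step, with 34.3, 23.7 and 25.1 CPM in otic cells against 22.8, 19.0 and 18.1 in neurons (0.47, SE 0.10, edgeR adjusted p = 0.00289) and 26.5, 22.4 and 27.0 in mesenchyme (0.12, SE 0.09, edgeR adjusted p = 0.290). Its lower level in neurons than in mesenchyme (-0.35, SE 0.10, edgeR adjusted p = 0.0154) was not called without WT 2 (adjusted p = 0.0821). Slit1 was the exception at low level, with 3.82, 3.10 and 3.58 CPM in neurons and at most 0.99 elsewhere.

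The Robo receptors were called higher in neurons than in mesenchyme in 4 of 4 cases, where 29.1% of all genes were higher. The level of Robo4 in the neuron gate depended on cells with endothelial UMIs, as described above. Robo2, the Slit receptor of sensory axons, read 76.9, 61.3 and 54.9 CPM in neurons, 36.9, 31.5 and 32.9 in mesenchyme and 11.0, 6.75 and 10.49 in otic cells. The 3 classes did not overlap, with -2.78 for otic cells against neurons (SE 0.13, edgeR adjusted p = 7.37e-07) and 0.93 for neurons against mesenchyme (SE 0.13, edgeR adjusted p = 0.000307). Robo1, its broad relative, was flatter, at 51.5, 49.9 and 44.1 CPM in otic cells, 48.1, 49.8 and 34.1 in neurons and 36.0, 31.2 and 32.8 in mesenchyme. Otic cells and neurons overlapped (0.15, SE 0.09, edgeR adjusted p = 0.176). The step of Robo1 from neurons to mesenchyme (0.38, SE 0.10, edgeR adjusted p = 0.00896) was not called without CD (adjusted p = 0.0738) or WT 1 (adjusted p = 0.0662). Robo3, a receptor of commissural axons, had 10 to 19 UMIs per neuron sum.

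In the netrin system the ligand with a level above 10 CPM was Ntn3, at 14.5, 13.9 and 15.5 CPM in neurons, 10.4, 7.69 and 10.9 in mesenchyme and 3.87, 3.26 and 4.63 in otic cells. The classes did not overlap (-1.91 for otic cells against neurons, SE 0.10, edgeR adjusted p = 1.42e-06). Ntn4 (2.14 to 2.92 CPM in neurons) was also highest there, and Ntn1 was lower in neurons (0.32 to 0.44 CPM) than in otic cells. Ntng1, a membrane-anchored netrin-G that does not bind DCC, was highest in mesenchyme (30.9, 31.0 and 19.6 CPM) over neurons (11.3, 16.9 and 13.3) and otic cells (4.70, 5.30 and 8.82). The call between neurons and mesenchyme (-0.999, SE 0.29, edgeR adjusted p = 0.0155) was lost without CD (adjusted p = 0.130), and that between otic cells and neurons (-1.12, SE 0.29, edgeR adjusted p = 0.00952) without WT 1 (adjusted p = 0.0861). Ntng2 had 46 UMIs or fewer in each sum.

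Of the netrin receptors, Unc5c and Unc5b divided the classes between them. Unc5c, a repulsive receptor, read 99.9, 89.0 and 79.5 CPM in neurons against 63.6, 59.7 and 59.5 in otic cells and 59.6, 64.9 and 60.0 in mesenchyme (-0.55 for otic cells against neurons, SE 0.07, edgeR adjusted p = 0.00011). Unc5b, known from vessels and shared with the otic epithelium here, read 38.9, 24.8 and 29.6 CPM in otic cells, 15.4, 16.7 and 13.3 in neurons, 10.53, 8.47 and 9.31 in mesenchyme and 15.8, 30.7 and 29.9 in endothelium. Otic cells exceeded mesenchyme by 1.71 (SE 0.12, edgeR adjusted p = 7.2e-06) and neurons by 1.04 (SE 0.13, edgeR adjusted p = 0.000139). Neo1, the broad receptor neogenin, stayed within 39.4 to 52.8 CPM over the 9 sums, with differences of -0.21 and -0.22 for otic cells (SE 0.05 each). Unc5a and Unc5d stood at 1.59 CPM or less in each sum.

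Dcc, the attractive netrin receptor of commissural and sensory axons, separated the libraries. It read 41.5, 39.6 and 5.40 CPM in the neurons, 5.82, 2.53 and 2.73 in the otic cells and 3.65, 3.25 and 2.14 in the mesenchyme. The class difference was called (-2.76 for otic cells against neurons, SE 0.45, edgeR adjusted p = 0.00072), and WT 2 was the low library. Epha3 (7.76, 7.45 and 1.70 CPM) and Epha8 (5.91, 4.97 and 1.57 CPM) were low in the same library, where the neural tube markers stood at 52.4 CPM beside 114 and 146. In neurons gated on Neurod1, Dcc read 17.9, 21.6 and 1.77 CPM and the neural tube markers 69.8, 77.2 and 38.2. Their part in the Dcc difference was not tested.

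The otic cells were then divided by genes that mark parts of the vesicle, comparing cells with 2 or more UMIs of the gate genes with cells at 0 in the same library. Dlx5 and Dlx6 mark the dorsal otocyst, Gbx2 its dorsomedial part, Otx1 and Otx2 its ventral part, and Neurog1 and Neurod1 the cells that will leave as neuroblasts. Positive cells were deeper, for example with medians of 28802, 33424 and 25334 UMIs for Otx against 21545, 23679 and 17591.5. With the library as block, edgeR called 7 members higher and 7 lower of 35 in the Dlx cells (background 16.0% and 14.8% of all genes), 6 and 12 of 34 in the Gbx2 cells (16.5% and 15.4%), 13 and 7 of 36 in the Otx cells (14.2% and 13.1%) and 8 and 7 of 34 in the Neurog cells (15.8% and 12.1%). The members' median was 0.06, -0.03, 0.10 and -0.03, against -0.01, -0.01, 0.01 and 0.00 over all genes.

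Slit2 and Slit3 were higher in the Dlx cells and lower in the Otx cells, gates set by transcripts and not by measured position. Slit2 read 44.8, 32.1 and 36.3 CPM in Dlx-positive cells against 22.3, 14.1 and 16.6 in the negative cells (log2 1.10, SE 0.05, edgeR adjusted p = 8.4e-07). It rose in the Gbx2 cells likewise (56.5, 34.9 and 44.5 against 26.9, 19.7 and 21.5 CPM, 0.99, SE 0.06) and fell in the Otx cells (20.3, 16.3 and 15.4 against 40.6, 28.7 and 30.5 CPM, -0.93, SE 0.05). Slit3 was higher in the Dlx cells (29.3, 26.2 and 26.4 against 18.3, 13.8 and 19.3 CPM, 0.66, SE 0.08) and lower in the Otx cells (12.9, 11.5 and 11.1 against 28.7, 26.0 and 26.5 CPM, -1.20, SE 0.06, edgeR adjusted p = 1.8e-06). Within each library the positive and negative sums lay on the same side in all of these comparisons.

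Unc5c and Unc5b were both higher in the Dlx cells and both lower in the Gbx2 cells. Unc5c read 82.9, 75.2 and 75.3 CPM in Dlx-positive cells against 34.9, 43.6 and 49.9 (0.85, SE 0.10, edgeR adjusted p = 0.00021), and fell in the Gbx2 cells (49.2, 47.5 and 43.1 against 76.2, 70.0 and 68.5 CPM, -0.62, SE 0.04). Unc5b read 46.9, 31.9 and 37.0 CPM in Dlx-positive cells against 30.2, 17.9 and 24.5 (0.68, SE 0.05), with -0.49 in the Gbx2 cells and -0.71 in the Otx cells. The Dlx cells were high in Slit2, Slit3 and both receptors, and the Gbx2 cells were high in Slit2 and low in both receptors.

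Epha7 was higher in the Gbx2 cells, at 175, 140 and 169 CPM against 71.7, 70.5 and 71.4 in the negative cells (1.18, SE 0.06, edgeR adjusted p = 1.2e-06). The ligand gene Efnb2 was higher there too (145, 101 and 110 against 82.5, 84.0 and 74.6 CPM, 0.55, SE 0.08, edgeR adjusted p = 0.0011), and Efna2 and Efna5 were lower (-0.50, SE 0.06, and -0.38, SE 0.05). The Otx cells carried a different set: Epha3 at 25.6, 12.4 and 11.3 against 4.93, 1.87 and 2.07 CPM (2.49, SE 0.10, edgeR adjusted p = 6.6e-07), Ntng1 at 10.0, 11.6 and 19.0 against 3.65, 3.51 and 6.17 CPM (1.61, SE 0.09), Ephb1 at 22.5, 22.9 and 25.3 against 11.8, 9.05 and 14.3 CPM (1.02, SE 0.09) and Epha4 at 122, 113 and 99.5 against 67.8, 77.7 and 63.3 CPM (0.68, SE 0.05). Efna5 was also higher in the Otx cells (0.47, SE 0.04). Epha3, below 10 CPM on average in the Dlx gate and named here after its values were seen, was higher in the Dlx cells as well (10.8, 5.63 and 6.03 against 5.54, 3.03 and 2.40 CPM, 1.07, SE 0.11). Ntng1 and Ephb1 were lower in the Dlx cells (-1.59, SE 0.13, and -1.05, SE 0.07), where Epha5 fell as well (-0.77, SE 0.06).

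The Neurog cells were high in Robo2 and Epha5, receptors that were also high in the neurons. Robo2 read 31.4, 17.5 and 31.6 CPM in the positive cells against 9.86, 6.12 and 8.02 (1.74, SE 0.10, edgeR adjusted p = 3.3e-08), and Epha5 31.7, 30.8 and 45.6 against 10.53, 11.3 and 11.2 CPM (1.71, SE 0.10, edgeR adjusted p = 3.9e-08). Efna5 was higher by 0.57 (SE 0.06), Efnb1 by 0.37 (SE 0.08), Robo1 by 0.30 (SE 0.05) and Ephb2 by 0.23 (SE 0.06), while Efna4 (-0.35, SE 0.05), Unc5b (-0.34, SE 0.07) and Ephb3 (-0.45, SE 0.07) were lower. Scrublet called 15.2%, 16.2% and 19.5% of these cells doublets against 5.04%, 4.34% and 6.47% of all otic cells, and without the called doublets the differences were 1.68 for Robo2 and 1.50 for Epha5.

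Efna5, an ephrin-A ligand with its highest class level in the otic cells, was called in each of the 4 gates. It read 76.1, 60.2 and 65.8 CPM in the Otx-positive cells against 54.7, 45.3 and 45.7 in the negative cells, and 86.1, 74.5 and 63.0 in the Neurog-positive cells against 56.2, 45.8 and 48.0. In both gates the positive cells were higher in each library. In the Gbx2 gate the order was opposite, with 49.7, 43.2 and 37.7 CPM in the positive cells against 65.4, 51.4 and 54.0, and so it was in the Dlx gate, with 55.2, 45.6 and 45.2 against 63.5, 51.5 and 53.0.

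The smaller called differences were less stable over the libraries. Epha1 was higher in the Dlx cells (0.37, SE 0.08) and the Gbx2 cells (0.40, SE 0.09), though neither was called without WT 2 (edgeR adjusted p = 0.0525 and 0.0625). Robo2, at a low otic level, was also higher in the Gbx2 cells (0.39, SE 0.09) and the Otx cells (0.41, SE 0.09), the first not called without CD (edgeR adjusted p = 0.0542) and the second without WT 2 (edgeR adjusted p = 0.0570). The Robo1 receptor had the reverse sign in the Otx cells (-0.34, SE 0.05). In the Dlx cells Efnb2 (-0.36, SE 0.10) and Epha7 (-0.24, SE 0.06) were lower, and without WT 1 neither was called (edgeR adjusted p = 0.206 and 0.116). In the Neurog cells Efnb2 (-0.23, SE 0.04), Slit2 (-0.23, SE 0.06) and Unc5c (-0.13, SE 0.04) were lower. Slit2 was not called there without CD (edgeR adjusted p = 0.0722) or WT 2 (0.0675), Unc5c without WT 1 (0.0852) or WT 2 (0.138), Efnb1 without WT 1 (0.0583) and Ephb2 without WT 2 (0.195). Efna2 fell in the Dlx cells (-0.25, SE 0.04), and Ephb1 (-0.74, SE 0.10) and Ephb3 (-0.33, SE 0.07) fell in the Gbx2 cells.

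**Figure D3:**
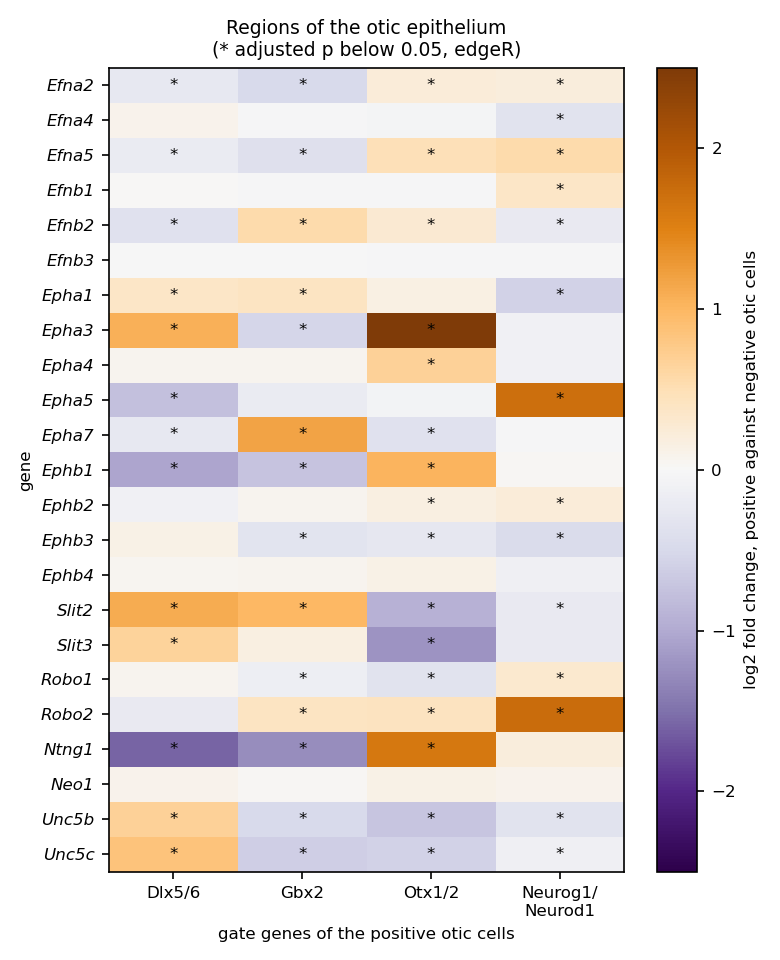
Log2 fold change of positive against negative otic cells (colour) for the members with at least 10 CPM on either side of at least 1 gate (rows) in the 4 regional gates (columns); an asterisk marks an edgeR adjusted p below 0.05. Slit2 and Slit3 are raised in the Dlx cells and lowered in the Otx cells, Epha7 is raised in the Gbx2 cells, Epha3, Ntng1 and Ephb1 in the Otx cells, and Robo2 and Epha5 in the Neurog cells.

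When each cell was thinned to 5000 UMIs before gating, 20 to 304 cells per library stayed positive for a region, and the members called fell to 8 (Dlx), 2 (Gbx2), 5 (Otx) and 1 (Neurog). Efnb2 in the Dlx cells then changed sign (main -0.36, thinned 0.39).

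The CD library was compared with the WT pair within each class, a comparison of 1 library against 2. The residual spread of a gene comes from the WT pair, with 1 degree of freedom. The edgeR fit draws it toward the spread over all genes, with a median prior of 8.75, 8.14 and 8.47 degrees of freedom in otic cells, neurons and mesenchyme. No member passed the test in any class. In the otic cells edgeR called 0 of 39 members (DESeq2 0) where it called 0.0932% of all genes. The neurons gave 0 of 38 (DESeq2 0) against 0%, and the mesenchyme 0 of 37 (DESeq2 0) against 0.0384%. The median log2 difference of the members was 0.13, 0.08 and 0.06, beside 0.00, -0.01 and 0.00 over all genes. Permuting 1 against 2 libraries cannot give a p below 0.333.

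In the otic cells, CD lay above both WT libraries for 14 of the 19 members with at least 10 CPM and below both for 2 (Efna4 and Epha5), where 29.6% of all genes at that level were above and 32.7% below. Slit2 had the smallest p among these 19, with 36.2 CPM in CD and 25.3 and 26.3 in WT (0.49, SE 0.15, edgeR adjusted p = 0.605). Unc5b read 41.1 CPM in CD and 26.5 and 31.0 in WT (0.52, SE 0.16, edgeR adjusted p = 0.637). Efnb2 (0.25, SE 0.15), Efna5 (0.24, SE 0.14) and Efnb3 (0.27, SE 0.18) came next, each at an edgeR adjusted p of 1. A pair of low receptors, named after their values were seen, showed larger estimates: Dcc read 6.16 CPM in CD and 2.70 and 2.86 in WT (1.15, SE 0.23, edgeR adjusted p = 0.162), and Epha3 9.21 against 5.00 and 4.64 CPM (0.93, SE 0.22, edgeR adjusted p = 0.293). Without the filter on low counts, 2 members were called in the otic cells, Dcc and Epha3.

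In the neurons, CD was above both WT libraries for 10 of 21 members and below both for 3 (27.3% and 26.5% of all genes at that level). Epha7 read 56.3 CPM against 43.2 and 38.8 (0.46, SE 0.20), Robo2 75.9 against 60.5 and 54.2 (0.40, SE 0.18), Epha5 201 against 182 and 114 (0.45, SE 0.25) and Ntng1 11.1 against 16.6 and 13.1 (-0.42, SE 0.27), each at an edgeR adjusted p of 1. Efna1 had the smallest p (9.03 CPM against 18.7 and 16.8, -0.97, SE 0.25, edgeR adjusted p = 1), and the difference was 0.058 without cells that held endothelial UMIs.

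In the mesenchyme, CD was above both WT libraries for 6 of 19 members and below both for 0 (26.5% and 30.6% of all genes at that level). Epha5 read 16.7 CPM in CD and 6.90 and 8.47 in WT (1.11, SE 0.24, edgeR adjusted p = 1), but 0.24 remained when cells in both the neuron and mesenchyme gate were left out and -0.11 after thinning. The neuron markers summed to 468 CPM in the CD mesenchyme and to 355 and 560 in WT. Epha7 read 70.9 CPM against 56.0 and 54.2 (0.36, SE 0.16). Epha4 (0.36, SE 0.30), Ephb3 (0.29, SE 0.25) and Ntng1 (0.29, SE 0.27) had WT libraries that lay further apart than CD lay from their mean.

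**Figure D4:**
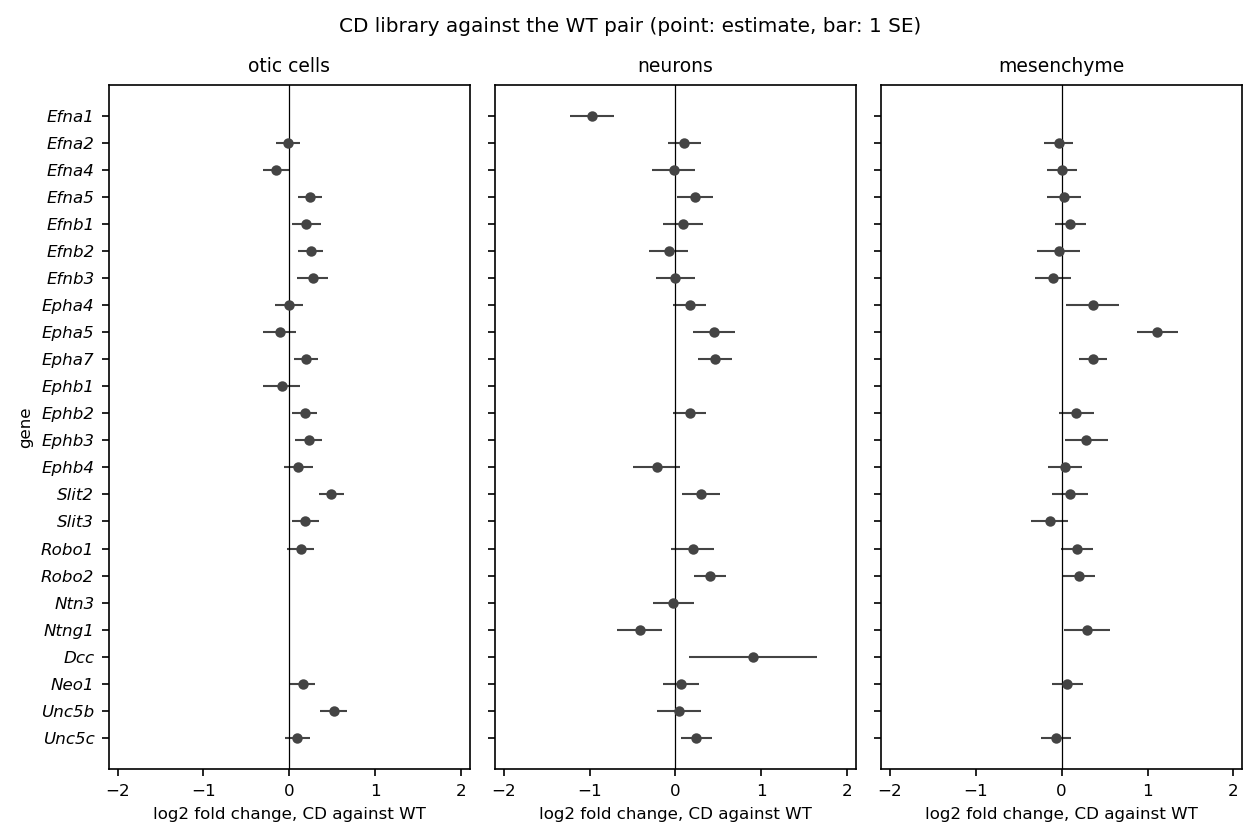
Log2 fold change of CD against the WT pair (point) with 1 SE (bar) for the members with a mean of at least 10 CPM in that class, in otic cells, neurons and mesenchyme. No member passed an edgeR adjusted p of 0.05; most otic points lie to the right of 0, with Slit2 and Unc5b farthest, and Epha5 in the mesenchyme and Efna1 in the neurons are the widest departures.

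The effect of genotype was also compared between classes. Neurons against otic cells gave 0 called members of 39 where 0% of all genes were called. The smallest p were those of Epha7 (0.26, SE 0.11), Efna1 (-0.96, SE 0.45), Unc5b (-0.47, SE 0.26), Ephb4 (-0.33, SE 0.21) and Epha5 (0.58, SE 0.37). Mesenchyme against otic cells gave 0 of 39 as well (background 0%), with Epha5 (1.20, SE 0.41), Slit2 (-0.39, SE 0.16), Efnb3 (-0.37, SE 0.20), Ntng1 (0.91, SE 0.55) and Epha7 (0.16, SE 0.10). DESeq2 called 0 members in both. Each had an edgeR adjusted p of 1.

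The regional differences within the otic epithelium were then set between the CD library and the WT pair, in a test of 1 library against 2 that was added after the regional levels had been seen and in which edgeR called 3 members. Efnb2 fell from 117 to 76.5 and from 101 to 70.7 CPM between Dlx-negative and Dlx-positive cells of the WT libraries, but read 102 and 105 CPM in those cells of CD. The regional difference of CD minus that of WT was 0.60 (SE 0.06, edgeR adjusted p = 0.00691), and without CD the regional difference itself was -0.57. It was the 1 member called of 35, where 0.252% of all genes were called.

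Unc5c and Epha7 differed in the Otx gate, where edgeR called 2 of 36 members and 0.958% of all genes. Unc5c read 75.4 CPM in Otx-negative and 36.4 in Otx-positive cells of CD, against 69.2 and 50.6 in WT 1 and 65.7 and 53.7 in WT 2. The gap was wider in CD by -0.68 on the log2 scale (SE 0.09, edgeR adjusted p = 0.000287). Epha7 went from 112 to 71.8 CPM in CD, from 95.5 to 81.3 in WT 1 and from 93.4 to 78.6 in WT 2 (-0.40, SE 0.07, edgeR adjusted p = 0.00388). Without CD the Otx differences of Unc5c and Epha7 were -0.37 and -0.24, beside -0.57 and -0.37 with it.

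**Figure D5:**
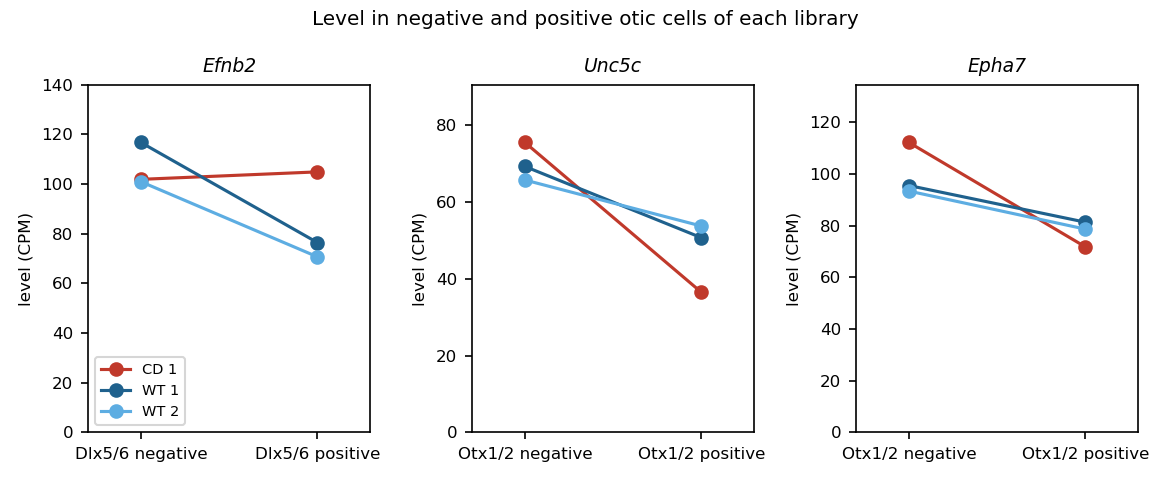
Level (CPM) of Efnb2, Unc5c and Epha7 in gate-negative and gate-positive otic cells of each library (red CD 1, dark blue WT 1, light blue WT 2), with a line joining the sums of 1 library. The Efnb2 line is level in CD and falls in both WT libraries, and the Unc5c and Epha7 lines fall more steeply in CD than in WT.

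These 3 calls rest on 1 residual degree of freedom and on spread borrowed from all genes (median prior 7.81 degrees of freedom in the Dlx and 17 in the Otx gate). They were not made by DESeq2 (adjusted p = 0.127 for Efnb2, 0.168 for Unc5c and 1 for Epha7). Haemoglobin RNA also differed by gate and library, at 5917 CPM in Dlx-positive and 11980 in Dlx-negative cells of CD (4103 and 6152 in WT 1, 6420 and 7598 in WT 2), and at 2919 and 8925 CPM in the Otx gate of CD (3793 and 4145, 7541 and 5615 in WT). Its part in the 3 results was not tested. In the Gbx2 gate 0 of 34 members were called (0.204% of all genes, DESeq2 0), with Efnb2 at 0.40 (SE 0.11, edgeR adjusted p = 0.389). Epha4 (-0.25, SE 0.10), Efnb3 (-0.32, SE 0.18), Epha7 (0.17, SE 0.11) and Ephb3 (-0.20, SE 0.14) followed. In the Neurog gate 0 of 34 were called (0.797% of all genes, DESeq2 0), with Epha7 (-0.17, SE 0.09), Efnb1 (-0.25, SE 0.16), Epha4 (-0.12, SE 0.10), Unc5b (-0.19, SE 0.15) and Efna2 (0.13, SE 0.12) lowest in p.

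The pathway partners, 40 genes for signalling behind these receptors and for ligands that share them, were tested in the same fits. Otic cells against neurons called 12 higher and 21 lower of 40 (33.4% and 31.6% of all genes), otic cells against mesenchyme 16 and 13 (31.6% and 31.4%), and neurons against mesenchyme 21 and 12 (29.1% and 30.1%). Draxin, a secreted repellent that binds DCC and netrin, led the neuron side with 48.6, 45.5 and 44.2 CPM against 1.89, 1.81 and 2.91 in otic cells (-4.40, SE 0.18, edgeR adjusted p = 4.3e-07). The netrin-responsive adhesion molecule Dscam (-4.08, SE 0.39) and the chimaerin Chn2, from a family of Rac regulators in ephrin signalling (-2.25, SE 0.09), followed, while Sipa1l1 was higher in otic cells (1.57, SE 0.08). Flrt2, a ligand of UNC5 receptors, stood at 159, 174 and 114 CPM in mesenchyme against 28.4, 15.5 and 24.0 in otic cells (-2.75, SE 0.24), and Ngef, an exchange factor behind EphA receptors, was lower in otic cells at a low level (-2.79, SE 0.36). Vav3, an exchange factor of Eph signalling, was lowest in mesenchyme (2.38 for otic cells, SE 0.17, and 3.00 for neurons, SE 0.17), as were Lrrc4, whose protein binds netrin-G2 (2.29 for otic cells, SE 0.16), and Flrt1 (2.87 for neurons, SE 0.18). Neurons also exceeded mesenchyme in Draxin (3.65, SE 0.18) and Dscam (3.33, SE 0.41).

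In the regions, edgeR called 11 partners higher and 10 lower of 38 in the Dlx cells (16.0% and 14.8% of all genes), 13 and 9 in the Gbx2 cells (16.5% and 15.4%), 10 and 9 in the Otx cells (14.2% and 13.1%) and 16 and 3 in the Neurog cells (15.8% and 12.1%). Lrrc4c, whose protein binds netrin-G1, rose in the Dlx cells (2.44, SE 0.35) and Gbx2 cells (2.94, SE 0.36) and fell in the Otx cells (-1.79, SE 0.40), opposite to Ntng1 in each gate. Its levels were low, at 1.31, 0.35 and 0.50 CPM in all otic cells and 0, 0.89 and 0.44 in neurons. Draxin rose in the Neurog cells (3.01, SE 0.22) with Chn2 (1.11, SE 0.13), Rgmb, a neogenin ligand (0.80, SE 0.07) and Grip1 (0.78, SE 0.07). Vav3 and Lrrc4 rose in the Gbx2 cells (1.24, SE 0.06, and 1.38, SE 0.11) with Flrt1 (1.50, SE 0.16), and fell in the Otx cells (-1.22, SE 0.08, and -1.12, SE 0.09), where Srgap3 rose (0.52, SE 0.06). In the Dlx cells Rgmb and Draxin fell (-0.72 each, SE 0.06 and 0.17) and Flrt1 rose (0.59, SE 0.19). Without WT 1 the calls of Draxin (edgeR adjusted p = 0.0537) and Flrt1 (0.242) in the Dlx cells were lost, that of Flrt1 also without WT 2 (0.0650), and that of Lrrc4c in the Otx cells without CD (0.0868). By genotype, edgeR and DESeq2 called 0 partners in each class and in each comparison between classes or regions, where without the filter on low counts edgeR called Lrrc4c in the otic cells (adjusted p = 0.0372) and Flrt2 in the genotype comparison of the Dlx gate (adjusted p = 0.0251). The smallest p in the otic cells was for Lrrc4c (1.62, SE 0.41, edgeR adjusted p = 0.371) and Flrt3 (0.43, SE 0.15, edgeR adjusted p = 0.902), in the neurons for Lrrc4c and Ablim1 (-0.76, SE 0.35) and in the mesenchyme for Rasa1 (0.19, SE 0.16) and Enah (0.16, SE 0.15).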

How the data were processed

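Otic vesicle cells of 1 CD and 2 WT libraries were profiled with the Chromium 3' kit. Cell Ranger 6.0 and build mm39 are named in the submitters' processing notes, and version 6.0.0 per the file headers. The deposited values are UMI counts, whole numbers for each gene in each barcode, with no normalisation by the authors. The libraries held 186439890 (CD), 157373393 (WT 1) and 202584468 (WT 2) UMIs over all barcodes, and no column of another sample was used.

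Cells were kept from 1000 genes upwards, with mitochondrial UMIs at 10% or less. Doublets called with Scrublet (scanpy 1.11.5, expected rate 5%; 3.28%, 2.83% and 3.87% of cells) stayed in the main analysis and were left out in an alternative. Counts were summed per library and gated class, since cells are not replicates, and tested with edgeR 4.0.16 in R 4.3.3 (TMM, filterByExpr, quasi-likelihood test, 2-sided, Benjamini-Hochberg over all genes tested, threshold 0.05). Classes and regions had the library as block. CD against WT had none. The residual spread of a gene there comes from the WT pair, and edgeR moderates it by the spread over all genes. The counts of the WT pair differed by 55.5 chi-square units per degree of freedom, so they are not 1 library deposited again. SE was taken as the size of the log2 fold change over the root of F. CPM were scaled within each fit, so the level of a gene can differ slightly between comparisons. The scripts were tested on simulated counts.

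The members and lists were chosen with earlier results of these data known. The text names each member, gives per-library levels from a class mean of 10 CPM, each called member or otherwise the 5 of smallest p in genotype tests, up to 6 members each way per region, and up to 4 partners called or the 2 of smallest p. The genotype by region test, and the exclusions of cells with endothelial UMIs from the 3 classes and of neurons without Neurod1, were added after the data had been seen. Alternatives were DESeq2 1.42.0, plain library totals, no gene filter, looser (500 genes, 20%) and stricter (2000 genes, 5%) cell filters, no Scrublet doublets, thinning to 5000 UMIs, stricter gates, cells of both gates left out, no library block and each library left out. Upstream windows came from RefSeq (GRCm38.p6).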

Additional observations from a re-analysis of the deposited data

Results flagged for a closer look

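Efnb2, Unc5c and Epha7 are set apart because the regional difference in the otic epithelium differed between the CD library and the WT pair by a test of that difference itself. For Efnb2 the difference between positive and negative Dlx5 Dlx6 cells was higher in CD by 0.603 on the log2 scale (edgeR adjusted p = 0.00691), and it stayed between 0.531 and 1.00 under the alternatives run. For Unc5c the difference in the Otx1 Otx2 gate was lower in CD by -0.680 (edgeR adjusted p = 0.000287), with -0.615 to -1.995 under the alternatives. For Epha7 the same gate gave -0.404 (edgeR adjusted p = 0.00388), with -0.382 to -1.09. DESeq2 called none of the 3, with adjusted p of 0.127, 0.168 and 1. After thinning, the Otx calls were lost (adjusted p = 0.518 for Unc5c and 0.861 for Epha7). The test has 1 CD library, and no cause of these differences was tested.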

How the results depend on the processing

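Of 2443 values of named genes under the alternatives, 2264 kept direction and side of the threshold, 140 were no longer called, 4 became called, 21 changed sign and 14 moved without a test. Among 180 counts of called members, 160 stayed within 1.5 times. No paired analysis was possible because CD and WT share only replicate number 1; the class and region fits have the library as block. Thinning cells to 5000 UMIs, which leaves fewer UMIs and genes, gave 21 called members in neurons against mesenchyme (34 in the main analysis), 8 for Dlx5 Dlx6 (14), 2 for Gbx2 (18), 5 for Otx1 Otx2 (20), 1 for Neurog1 Neurod1 (15) and 0 for the genotype difference in the Otx1 Otx2 gate (2). Without the library block the 4 regions gave 7, 6, 10 and 6 members. Leaving out 1 library gave 28 to 33 members in the comparisons with neurons, 20 to 23 for otic cells against mesenchyme, and 11 to 17, 12 to 16, 16 to 21 and 11 to 15 in the 4 regions. Without the gene filter, CD against WT called 2 members in otic cells, 1 (Dcc) in neurons and 1 (Epha5) in mesenchyme, where the main analysis called 0. The genotype difference in the Dlx5 Dlx6 gate called 0 members with DESeq2 and 3 with library totals, no gene filter, the strict cell filter or no doublets (1 in the main analysis), that in the Otx1 Otx2 gate 0 with DESeq2, and that in the Gbx2 gate 1 with the loose cell filter (0). Of the members called without the gene filter, Dcc in the neurons read 40.9 CPM in CD, 39.1 in WT 1 and 5.34 in WT 2. The mesenchyme difference of Epha5 shrank in the main fit when cells in both gates were left out. The cause of the changed counts was not tested.

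Signs changed with thinning for Epha5 in CD mesenchyme (-0.11), Efnb2 in the Dlx cells (0.39), Epha1 (-0.24), Robo2 (-0.41) and Ephb3 (0.26) in the Gbx2 cells, and for genotype differences of Flrt2 (-0.28) and Enah (-0.088) in the Dlx5 Dlx6 gate, Efnb3 (0.13) in the Gbx2 gate, Ptpn11 (-0.086) in the Otx1 Otx2 gate and Efna2 (-0.10), Flrt3 (0.40) and Dock1 (0.92) in the Neurog1 Neurod1 gate (Efna2 -0.023 also with stricter gates). Leaving out cells with endothelial UMIs from the 3 classes turned Efna1 (otic cells against neurons 1.59, neurons against mesenchyme -1.94, CD in neurons 0.058, CD in neurons against otic cells 0.028) and Unc5b (CD in neurons against otic cells 0.043), and Neurod1 neurons gave 1.71 and -2.22 for Efna1. Leaving out cells of both gates turned Efnb1 (otic cells against neurons 0.12).

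Counts over all genes moved more than 1.5 times in the genotype tests: 16 in otic cells (4 to 155), 0 in neurons (0 to 74), 6 in mesenchyme (0 to 54), and 39 (8 to 299), 31 (1 to 117), 147 (6 to 301) and 122 (1 to 126) for the genotype differences by region. For the regions themselves 4772, 4832, 4183 and 4276 became 2560, 2761, 2221 and 2511 with DESeq2, 1243, 548, 544 and 377 thinned and 1414, 1497, 1200 and 1641 without the block. Otic cells against neurons fell from 10584 to 6829 thinned.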

Other observations

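Neural crest cells gated on Sox10 (165, 241 and 185 cells) and endothelial cells gated on Cdh5 and Pecam1 (195, 215 and 225 cells), neither of which entered a test, held their own guidance genes. In the crest cells Ephb2 read 43.1, 47.1 and 36.3 CPM, Robo1 43.6, 40.2 and 30.9, Efna5 43.8, 29.1 and 36.3 and Dcc 15.3, 12.8 and 9.48. In the endothelium Epha2, a receptor of ephrin-A1, read 17.8, 15.8 and 15.8 CPM, beside at most 3.02 CPM in any sum of the 3 classes, and Robo4 53.5, 48.1 and 54.2 CPM. These are levels in 1 sum per library.

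Robo3, below the level described for the classes, had 15 UMIs in the otic cells of CD and 1 and 0 in WT, a difference that edgeR did not call (adjusted p = 0.637).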
